A study of Mus musculus with 12 samples.

Results

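Pressure overload of the left ventricle was examined here in the hearts of control mice, by comparing hearts after transverse aortic constriction (TAC) with hearts after a sham operation. The members were chosen by the labels alone: the 3 libraries labelled Ctrl-TAC (Ctrl_TAC_3586, Ctrl_TAC_3800 and Ctrl_TAC_4231, named by the number of the animal) and the 3 labelled Ctrl-Sham (Ctrl_Sham_4010, Ctrl_Sham_4011 and Ctrl_Sham_4033), which are 6 of the 12 libraries of the series. Tests covered the 13392 of 53882 entries of the table that reached 10 in 3 or more of the 12 libraries. The study asked whether cardiac ISL1-interacting protein (CIP, gene Mlip), switched on after the ventricle has thickened, changes the course of the disease, and the control animals show the disease itself.

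All mice were C57BL/6 and 4 months old by the labels, and heart tissue was taken 8 weeks after surgery, with 1 library of total RNA per animal. The control animals were CIP-KI-flox littermates: they carried a CIP transgene at the Rosa locus behind a floxed stop and no Cre, so the transgene was silent. In TAC the aortic arch was tied against a needle, which narrows it, and the sham operation left out the tie. The other 6 mice of the series (CIP-OE) carried the same allele with aMHC-Mer-Cre-Mer, a Cre under a cardiomyocyte promoter that works only after tamoxifen. Whether the control mice received tamoxifen, their sex and which part of the heart was taken were not given in the sources used here.

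A ventricle that pumps against a narrowed aorta is stretched and thickens, and its cardiomyocytes take up parts of the gene programme of the fetal heart: natriuretic peptides, beta myosin heavy chain and skeletal alpha actin. Fibroblasts become activated and lay down matrix, while transcripts for calcium cycling, repolarisation and fatty acid oxidation are known to decline. The results are given in that order, with the values as normalised read counts, which are reads divided by 1 factor per library.

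Depth was even in the 6 libraries, at 7300795 to 7704812 reads in genes. Mitochondrial transcripts took 44.6 to 47.0% of these reads in Ctrl-Sham and 33.9 to 43.0% in Ctrl-TAC. The ventricular marker Myl2 was high in all 6 hearts (26549 to 31100.4 in sham, 18437 to 26829 after TAC). Its lower level after TAC passed in limma, but not in every fit that left out 1 control library. The atrial markers Myl7, Sln and Bmp10 were at 0 to 2.12 in all 6 hearts and Myl4 at 3.18 to 14.8. The other 4 atrial markers listed were present in every heart: Nppa and Dkk3 (13.2 to 20.9 in sham, 79.0 to 112 after TAC) rose and Stard10 (61.6 to 78.4 against 26.7 to 60.8) and Tbx5 (142 to 191 against 72.1 to 137) fell, the last 2 with an adjusted p (limma) of up to 0.341 and 0.133 when 1 library was left out. A further feature separates the groups: the Ctrl-TAC libraries held relatively more reads of GC-rich transcripts than the other 9 libraries. For each library, the median log2 deviation from the gene means of all libraries of the series was taken. That of genes over 52.8% GC minus that of genes up to 46.5% was 0.49 to 0.75 in Ctrl-TAC and -0.46 to -0.21 in Ctrl-Sham. It was -0.24 to 0.025 in CIP-OE-Sham and -0.20 to 0.016 in CIP-OE-TAC, which had the same operation. Since this feature goes with the group, its part and that of the operation cannot be told apart. Results are therefore given as the authors normalised them, and counts are given again after the values of each library were corrected for GC content.

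Pressure overload was followed by a broad change of the heart transcriptome. At a Benjamini-Hochberg adjusted p below 0.05 in limma, 2776 genes (20.7% of those tested) were higher in Ctrl-TAC and 2701 (20.2%) were lower, so that 5477 (40.9%) differed in either direction. With a fold change over 1.5 in addition, 2254 genes (16.8%) were higher and 1837 (13.7%) were lower. The 3 TAC values lay above all 3 sham values in 25.2% of the genes tested and below them in 25.5%. After GC correction 1385 genes (10.4%) were higher and 1374 (10.4%) lower, and 2002 genes passed before and after it in the same direction. The median log2 fold change of all genes tested was 0.00. The counts of gene lists that follow are to be read against these shares of all genes, 20.7% higher and 20.2% lower as deposited and 10.4% in each direction after GC correction.

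With the genes split into 10 classes by the GC content of their transcripts, the median log2 fold change ran from -0.61 in the class of lowest GC content to 0.78 in the class of highest. Of 4420 genes with a GC content up to 46.5%, 132 were higher and 1942 lower in Ctrl-TAC, and of 4419 with over 52.8%, 2011 were higher and 112 lower. After correction the GC-poor genes held 427 higher and 426 lower members and the GC-rich genes 468 and 488. Of the genes named in the text that passed as deposited, 113 had a corrected value and 110 of these passed again, the exceptions being Col3a1, C1qc and Cd36. The log2 fold change of 31 of the 110 moved by over 1.5 times, for Stard10 away from 0 (-0.62 to -1.26) and for the other 30 toward 0, so the values printed for these 30 are the larger of the pair. Among them, those that rose had corrected values from 0.38 (Atf4) to 1.67 (Bbc3) and include Atf5 (1.59 to 0.70), Bag3, Col1a1 (1.90 to 1.20), Col4a1, Col4a2, Des, Hspb1, Klf2, Loxl1, Ltbp3, Ltbp4 (1.64 to 0.72) and Smad7. Those that fell had corrected values from -1.03 (Kcnj2) to -0.39 (Pln) and include Aldh6a1, Chrm2, Dbt, Dsc2, Etfdh, Hsp90b1, Lpl (-1.0 to -0.59), Mrc1, Ndufs1, Nebl, Nr1d2, Ppp3r1, Sucla2 and Trdn (-1.13 to -0.46). Across genes, the Spearman correlation of GC content and log2 fold change was 0.64 over 13259 genes, which are not independent replicates.

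**Figure D1:**
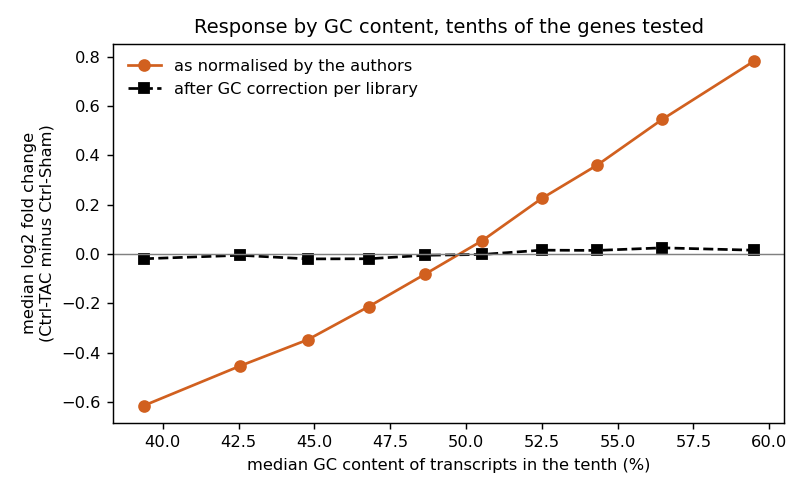
Median log2 fold change (Ctrl-TAC minus Ctrl-Sham, y axis) of genes in 10 classes of transcript GC content (x axis, %). Filled circles, values as normalised by the authors, climb from -0.61 to 0.78, and squares, after GC correction of each library, stay between -0.02 and 0.03.

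The promoters of 4 genes of the stretched cardiomyocyte that rose and of 2 cardiomyocyte genes that fell are printed, since these genes recur in the results. The windows come from RefSeq (build GRCm38.p6) and run from 250 bases before the transcription start to 50 after it, 5′ to 3′ on the strand of the gene. Capitals mark matches, on either strand, to the M-CAT element CATTCC (bound by TEAD factors), to the GATA motifs TGATAA and AGATAA, and to the CArG box (bound by SRF). No match overlapped a match to another motif. The windows lie at chr4:148000472-148000771 on the plus strand (Nppa), chr4:147985650-147985949 plus (Nppb), chr8:123894726-123895025 minus (Acta1), chr19:36119795-36120094 minus (Ankrd1), chr10:53337436-53337735 plus (Pln) and chr12:31713834-31714133 minus (Gpr22).
Nppa: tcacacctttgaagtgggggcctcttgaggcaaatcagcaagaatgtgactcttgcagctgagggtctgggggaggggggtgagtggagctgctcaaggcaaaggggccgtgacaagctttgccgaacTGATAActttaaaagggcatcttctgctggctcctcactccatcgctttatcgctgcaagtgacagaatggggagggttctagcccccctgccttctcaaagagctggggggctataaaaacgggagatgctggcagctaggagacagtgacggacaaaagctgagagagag
Nppb: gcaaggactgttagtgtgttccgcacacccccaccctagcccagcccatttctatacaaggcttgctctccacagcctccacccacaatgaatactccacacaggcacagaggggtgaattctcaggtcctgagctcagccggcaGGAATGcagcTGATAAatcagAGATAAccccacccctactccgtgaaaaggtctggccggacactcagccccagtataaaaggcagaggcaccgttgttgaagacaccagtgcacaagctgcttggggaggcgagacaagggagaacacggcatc
Acta1: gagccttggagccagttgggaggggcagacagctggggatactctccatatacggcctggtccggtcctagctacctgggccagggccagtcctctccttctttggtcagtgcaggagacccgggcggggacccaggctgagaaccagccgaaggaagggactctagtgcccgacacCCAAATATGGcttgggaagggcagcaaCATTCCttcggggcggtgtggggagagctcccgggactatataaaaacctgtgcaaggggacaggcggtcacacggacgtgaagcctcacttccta
Ankrd1: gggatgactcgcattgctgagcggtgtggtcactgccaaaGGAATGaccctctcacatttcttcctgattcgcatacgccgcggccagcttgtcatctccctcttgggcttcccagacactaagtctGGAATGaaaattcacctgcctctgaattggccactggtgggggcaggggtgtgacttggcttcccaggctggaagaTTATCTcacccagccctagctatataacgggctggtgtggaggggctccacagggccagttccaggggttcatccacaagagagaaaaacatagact
Pln: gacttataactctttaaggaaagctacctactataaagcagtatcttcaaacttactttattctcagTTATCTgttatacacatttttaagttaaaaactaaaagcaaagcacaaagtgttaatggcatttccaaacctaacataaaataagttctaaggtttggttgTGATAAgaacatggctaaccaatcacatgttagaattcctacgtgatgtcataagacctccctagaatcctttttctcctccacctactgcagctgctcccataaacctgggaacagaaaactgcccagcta
Gpr22: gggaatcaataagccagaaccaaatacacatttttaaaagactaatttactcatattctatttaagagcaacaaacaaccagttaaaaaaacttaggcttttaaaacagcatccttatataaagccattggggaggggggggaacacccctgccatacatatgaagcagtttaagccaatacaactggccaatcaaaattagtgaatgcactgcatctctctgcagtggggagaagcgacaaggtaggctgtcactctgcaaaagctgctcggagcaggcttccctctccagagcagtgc

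The promoter of Nppb held an M-CAT element 105 bases and GATA motifs 95 and 84 bases before the start, that of Nppa a GATA motif at 122 bases, and that of Acta1 a CArG box at 73 bases and an M-CAT element at 46. In the Ankrd1 window M-CAT elements stood at 210 and 123 bases and a GATA motif at 47. Pln, which fell, also held GATA motifs, at 183 and 82 bases, and no match was found in the Gpr22 window. Over 27025 genes with a promoter in the table, 14.6% held an M-CAT element, 19% a GATA motif and 1.57% a CArG box in a window of this length. Of the genes tested, 9832 had such a promoter, with shares of 12.1%, 9.96% and 1.35%. Among those higher in Ctrl-TAC the shares were 12.9%, 9.54% and 1.71%, and among those lower 11.9%, 10.6% and 1.34%. These matches describe the letters of the windows and not sites in use.

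Both natriuretic peptides of the heart rose. Nppa, which encodes atrial natriuretic peptide, stood at 724, 776 and 617 in the sham hearts and at 28675, 27394 and 15143 after TAC. Every TAC heart lay far above every sham heart, and the log2 fold change was 5.02 ± 0.34 (SE, n = 3 and 3, limma adjusted p = 4.56e-06), a 32.5-fold rise. Its share of the reads in nuclear genes went from 0.0151 to 0.0188% in the sham hearts to 0.354 to 0.727% after TAC. Nppb, the brain natriuretic peptide gene, stood at 838, 611 and 656 against 2343, 5188 and 5499.7. The groups were again apart, with a log2 fold change of 2.54 ± 0.41 (adjusted p = 0.00116, limma). The order of the hearts differed between the peptides: Ctrl_TAC_4231 was the lowest of the TAC hearts for Nppa and the highest for Nppb, and Ctrl_TAC_3586 the reverse. Of 8 genes of the natriuretic peptide system that were tested, 3 rose and 2 fell, and after GC correction 2 rose and 2 fell (median 0.28 as deposited, -0.05 corrected). Those that fell were Corin, the protease that activates atrial natriuretic peptide (1829.9, 1796 and 1470.4 against 739.8, 1005 and 1199, log2 fold change -0.81), and Mme, neprilysin, which degrades natriuretic peptides (128, 102 and 103 against 25.9, 14.6 and 47.7, log2 fold change -2.03).

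Sarcomere genes shifted by isoform. Acta1, skeletal alpha actin, rose from 1241, 985 and 1947 to 17201, 33816 and 32124, a log2 fold change of 4.31 ± 0.46 (adjusted p = 0.000125, limma). Actc1, the cardiac alpha actin of the adult heart, stood at 63780.2, 69164 and 57458 against 72147, 73182 and 76039.9 and did not pass the test, although the groups did not overlap (log2 fold change 0.22, adjusted p = 0.24). Per length of transcript, Acta1 made up 1.43 to 3.34% of the sum of both actins in the sham hearts and 19.5 to 32.0% after TAC. The actins are close paralogs whose reads the authors' counting could split, which holds for the myosins as well.

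Myh7, the slow beta myosin heavy chain, rose from 3600.3, 1455 and 3474 to 11299, 9174 and 8089 (log2 fold change 1.84 ± 0.35, adjusted p = 0.00248). Myh6, the fast alpha chain of the adult mouse heart, overlapped between groups, at 71063, 79341 and 70079 against 48889.5, 48988 and 83089. Its log2 fold change was -0.33 ± 0.20 (adjusted p = 0.198, limma), which became -0.84 after GC correction (adjusted p = 0.0101) and -0.58 without Ctrl_TAC_4231 (adjusted p = 0.00888). Myh7 made up 1.77 to 4.74% of both chains per length in sham hearts and 8.72 to 18.5% after TAC, with Ctrl_TAC_4231 the lowest. Of 20 sarcomere genes tested, 6 rose and 1 fell, and after GC correction 4 rose and 3 fell (median 0.24 as deposited, -0.03 corrected). Tpm2, a tropomyosin, stood at 60.6, 51.9 and 43.5 against 128, 203 and 205 (log2 fold change 1.74) and Mybpc2, the myosin binding protein of fast skeletal muscle, at 31.8, 34.6 and 101 against 154, 192 and 152 (1.76).

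**Figure D2:**
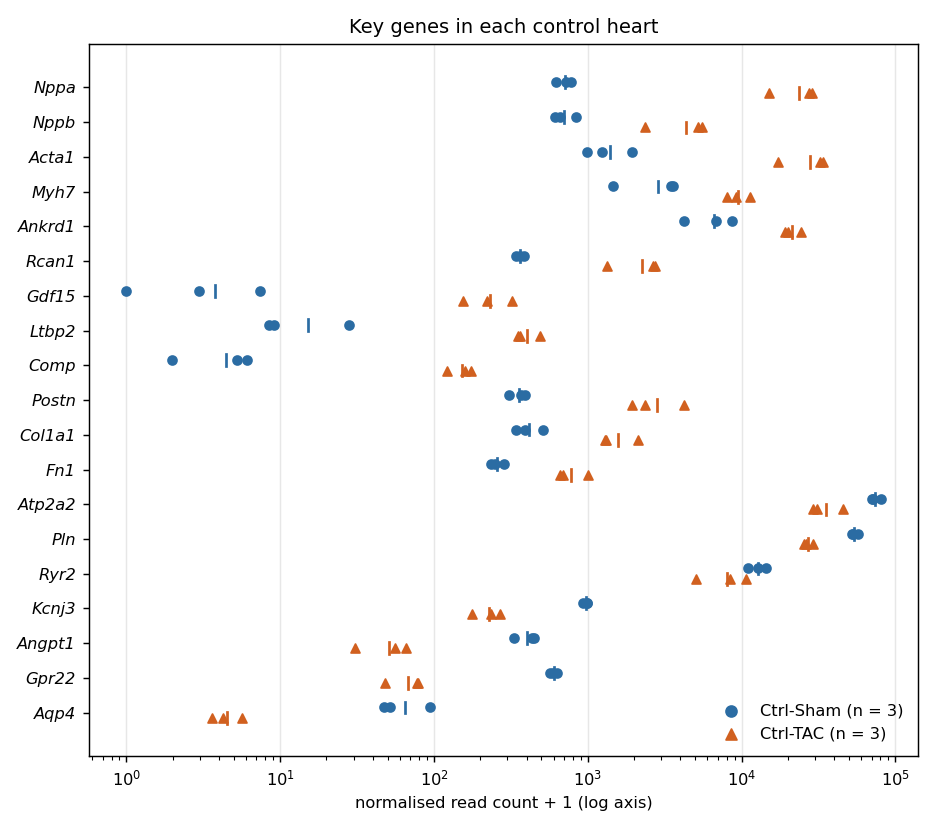
Normalised read count plus 1 (x axis, log scale) of 19 genes in each control heart, circles for Ctrl-Sham and triangles for Ctrl-TAC (n = 3 each), with short bars at the group means. The genes were picked for the drawing, and key genes whose groups overlap, such as Myh6, Kcnip2 and Mlip, are not drawn. The 2 groups do not overlap in any gene drawn. Over all genes tested, the TAC values lay above all sham values in 25.2% and below them in 25.5%. Among the genes drawn, Nppa, Gdf15, Ltbp2 and Comp are separated by the widest gaps upward, Aqp4 and Gpr22 downward.

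Genes of the Z-disc and of the response to stretch rose as a group: 16 of 26 tested were higher and 2 lower, with a median log2 fold change of 0.61 (12 higher and 2 lower after GC correction). Ankrd1, a titin-associated protein that also acts in the nucleus, went from 6819, 4242 and 8694 to 19267, 20131 and 24512, and TAC and sham hearts did not overlap (log2 fold change 1.75 ± 0.30, adjusted p = 0.0009, limma). Its relative Ankrd23 rose from 49.6, 53.9 and 48.8 to 242, 197 and 318 (2.26 ± 0.19, adjusted p = 1.46e-07). Nrap, which assembles myofibrils at the cell ends, rose from 2327, 2633 and 2910.1 to 5227, 5900.0 and 7313, and the co-chaperone Bag3 from 1236, 1457 and 1296 to 2399, 3192 and 3444. Nebl, the nebulin-related nebulette, went the other way, from 3344, 3259.8 and 3699 to 1000.2, 1574 and 1467 (-1.37 ± 0.16, adjusted p = 3.04e-06).

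Of 22 cytoskeletal genes tested, 15 were higher and none lower (median 0.71, with 8 higher after GC correction). Desmin, Des, the intermediate filament of muscle, rose from 7329, 8644 and 7393 to 18298, 19127 and 21259, and Lmna, which encodes the A-type lamins of the nuclear envelope, from 248, 257 and 208 to 649, 537 and 543. Tuba1b, an alpha tubulin, stood at 9.93, 8.14 and 6.36 against 61.0, 47.0 and 55.5 (log2 fold change 2.61). Among heat shock genes Hspb6, a small heat shock protein of muscle, went from 7174, 8936 and 8502 to 17577, 22432 and 22313 (1.34 ± 0.15), and Hspb1 from 114, 106 and 76.3 to 283, 506 and 404 (1.98 ± 0.24). Of 25 heat shock genes tested, 8 rose and 4 fell (4 and 3 after GC correction). Rcan1, an inhibitor of calcineurin that calcineurin itself induces, rose from 360.4, 384 and 338 to 1324, 2729.6 and 2654 (log2 fold change 2.56 ± 0.30, adjusted p = 8.66e-05). Among the 14 genes of calcineurin and NFAT, however, 4 rose and 7 fell, including Ppp3r1, the regulatory subunit of calcineurin (log2 fold change -0.96), and 2 rose and 3 fell after GC correction.

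Mlip, the gene of CIP itself, did not pass the test in control hearts. It stood at 950.2, 926 and 1322 in sham and 888, 823 and 936 in TAC hearts (log2 fold change -0.25 ± 0.34, adjusted p = 0.581, limma), and the groups overlapped. The SE is that of the fit over all 12 libraries, which holds the CIP-OE hearts with the transgene. The SD of Mlip was 1864 in CIP-OE-Sham and 1338 in CIP-OE-TAC, against 222 in Ctrl-Sham and 56.7 in Ctrl-TAC.

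Stress signals rose as well. Gdf15, a circulating factor of the integrated stress response, was nearly absent in sham hearts, at 1.99, 0 and 6.36, and reached 222, 153 and 319 after TAC. That made it the gene with the largest rise among the named genes (log2 fold change 6.31 ± 0.77, adjusted p = 6.78e-05, limma). At such low sham values the fold depends on the 1 that is added before the logarithm. Of 22 genes of the integrated stress response tested, 12 rose and 1 fell (median 0.60, and 10 rose and none fell after GC correction). Atf4, its central transcription factor, stood at 309.8, 338 and 319 against 509, 625 and 575 (log2 fold change 0.82), Atf5 at 220.4, 288 and 173 against 718, 689.7 and 606 (1.59), and Nupr1 at 12.9, 14.2 and 15.9 against 70.2, 64.0 and 43.4 (1.95).

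Chaperones of the endoplasmic reticulum, which answer to another branch of the stress response, did not rise. None of 19 tested was higher and 7 were lower (5 after GC correction). Hspa5, the chaperone BiP, fell from 3193, 3437 and 2641 to 1371, 1785 and 1747 (-0.92 ± 0.15, adjusted p = 7.52e-05, limma), and Hsp90b1 from 2394, 2385 and 1978 to 963, 1165 and 1199 (-1.02 ± 0.13, adjusted p = 8.9e-06).

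AP-1 and other immediate early genes were higher in 11 of 22 tested and lower in none (median 1.31), and after GC correction 7 were higher and none lower (median 0.87). Klf4 rose from 116, 116 and 122 to 309, 609 and 401, Klf2 from 130.1, 163 and 134 to 477, 1084 and 442, and Jun from 191, 209.7 and 142 to 399.9, 951 and 517. The increase was uneven, with Ctrl_TAC_3800 the highest of the TAC hearts in all 3 genes. Across the group, the median excess over sham on the log2 scale was 2.13 in Ctrl_TAC_3800, 1.10 in Ctrl_TAC_4231 and 0.62 in Ctrl_TAC_3586, and 16 genes passed when Ctrl_TAC_3586 was left out. Tnfrsf12a, the receptor of the cytokine TWEAK, went from 88.4, 108 and 102 to 501, 742 and 847 (log2 fold change 2.77 ± 0.21, adjusted p = 1.96e-07), and Bbc3, the apoptosis activator Puma, from 1.99, 3.05 and 4.24 to 36.0, 18.6 and 26.9. Sham hearts held only a few reads of Bbc3. The list of both genes, p53 targets and apoptosis, was mixed. Of 23 tested, 9 rose and 3 fell (median 0.02), and after GC correction 6 rose and 2 fell (median 0.23).

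Matrix genes were higher more often than lower in each class that was listed, though not in all members. Of 20 collagens tested, 15 were higher and 1 lower (median log2 fold change 1.13). The counts were 17 and 3 of 22 for matrix glycoproteins and elastic fibres (median 1.4), 16 and 1 of 21 for collagen folding and crosslinking (0.77), 13 and 1 of 18 for matricellular proteins (1.39), and 18 and 3 of 36 for matrix proteases and their inhibitors (0.56). After GC correction these classes held 8, 14, 9, 10 and 17 higher members, with the number of lower members unchanged in each. Their medians were then 0.61, 0.97, 0.38, 1.25 and 0.56. Basement membrane genes were higher in 11 of 19 and lower in 2 (5 and 2 after correction), with a median of 0.60 that correction brought to 0.01. Proteoglycans were higher in 8 of 21 and lower in 2 (9 and none after correction), with medians of 0.52 and 0.54.

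Col1a1, the main chain of type I collagen, stood at 392, 514 and 342 in sham hearts and at 1285, 2135 and 1317 after TAC (log2 fold change 1.90 ± 0.28, adjusted p = 0.000265, limma). Col3a1, of type III collagen, went from 809, 914 and 574 to 1478, 2508 and 1226 (1.14 ± 0.38, adjusted p = 0.039). The groups did not overlap for either gene, but the call of Col3a1 was lost after GC correction (adjusted p = 0.137) and when any of Ctrl_Sham_4010, Ctrl_Sham_4033, Ctrl_TAC_3586 or Ctrl_TAC_3800 was left out (adjusted p = 0.0717, 0.121, 0.0825 and 0.112). Fn1, fibronectin, rose from 284, 234 and 249 to 692, 995 and 658 (1.59 ± 0.18, adjusted p = 5.25e-06). The basement membrane collagens Col4a1 and Col4a2 rose together, Col4a1 from 1200.4, 1423 and 1018 to 3412, 3865 and 4699.6 and Col4a2 from 947, 1037 and 811 to 2727, 3023 and 3434.

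Several matrix genes that were low in sham hearts rose the furthest among the matrix genes named. Ltbp2, a protein of elastic fibres, rose from 26.8, 8.14 and 7.42 to 364, 490.3 and 353 (log2 fold change 4.95 ± 0.51, adjusted p = 4.92e-05, limma). Comp, a matrix protein of cartilage and tendon, rose from 0.993, 5.09 and 4.24 to 174, 119.9 and 159 (5.23 ± 0.85), and Fmod, the collagen-binding proteoglycan fibromodulin, from 2.98, 3.05 and 1.06 to 108, 139 and 145 (5.34 ± 0.73). Every TAC heart was above every sham heart for these genes, while sham hearts held only a few reads of Comp and Fmod. Cilp, which binds TGF-beta, reached 767, 1080.3 and 849.7 from 86.4, 108 and 50.9, and Postn, periostin, the classic product of activated fibroblasts, 2369, 4198 and 1930.2 from 392, 365 and 305. The thrombospondin Thbs4 rose from 31.8, 14.2 and 21.2 to 226, 366 and 325 and the microfibril protein Mfap4 from 49.6, 68.2 and 65.7 to 852, 849 and 616. Bgn, the proteoglycan biglycan, rose from 1625, 1944 and 1503 to 6378, 9157 and 6826 (2.13 ± 0.20, adjusted p = 2.6e-06).

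Among the genes that process collagen, those named here rose as deposited. Loxl1, a lysyl oxidase that crosslinks elastin and collagen, went from 123, 114 and 64.7 to 636, 503 and 440.0, and Pcolce, which enhances the cutting of procollagen, from 182, 218 and 160.1 to 562, 746 and 501. Mmp11, a matrix metalloproteinase, rose from 169.8, 189 and 162 to 924, 584 and 798 (log2 fold change 2.12 ± 0.23, adjusted p = 1.28e-05, limma). A few members went against the block: Emilin2, an elastic fibre glycoprotein, fell from 169, 143 and 174 to 64.6, 60.8 and 44.3 (-1.52 ± 0.17), and Thbs2, another thrombospondin, from 199.6, 167 and 159 to 106, 70.5 and 98.1 (-0.94 ± 0.18).

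TGF-beta is the main cytokine that turns fibroblasts into matrix-making cells. Of 27 genes of its pathway tested, 15 rose and 3 fell (median 0.81, and 16 and 2 after GC correction). Among ligands, Tgfb2 went from 122, 114 and 121 to 284, 451 and 394 (log2 fold change 1.63 ± 0.24, adjusted p = 0.000109, limma). Of the latent binding proteins that hold the ligand in the matrix, Ltbp3 rose from 145, 155 and 131 to 464, 487 and 387 and Ltbp4 from 1241, 1355 and 1391 to 4406, 3806 and 4238. Inhibitors rose as well: Smad7, which blocks signalling inside the cell, from 57.6, 56.0 and 50.9 to 177, 143 and 164, and Fstl3, which binds activin, from 36.7, 20.4 and 26.5 to 116, 169 and 177. Ctgf, a matricellular target of both TGF-beta and stretch, rose from 311, 345 and 319 to 1395, 2847 and 1991 (2.61 ± 0.30, adjusted p = 8.13e-05) and had no GC-corrected value. Among WNT modulators 8 of 16 rose and 3 fell (4 and 1 after GC correction), including secreted antagonists: Frzb stood at 24.8, 23.4 and 24.4 against 139, 152 and 128, and Sfrp2 at 4.96, 13.2 and 9.54 against 141, 211 and 59.0.

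**Figure D3:**
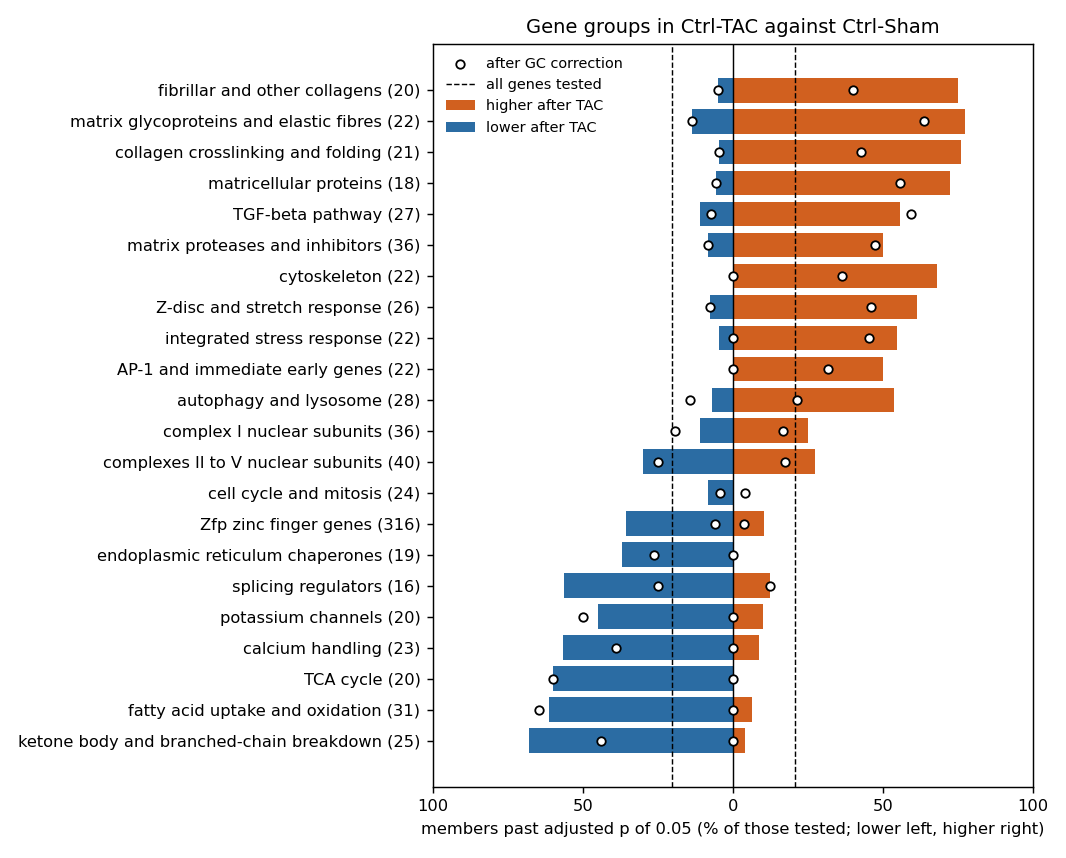
Share of tested members of 22 gene groups (number tested in brackets) past an adjusted p of 0.05, higher in Ctrl-TAC to the right and lower to the left, with open circles for the same counts after GC correction. Matrix groups lie well beyond the dashed lines of all genes tested (20.7 and 20.2%) on the right, and fatty acid, branched-chain, TCA cycle, calcium and potassium channel groups on the left, whereas the bar of the Zfp genes shrinks to 19 of 316 lower after correction.

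Calcium handling went down. Of 23 genes tested, 2 rose and 13 fell (median log2 fold change -0.43), and after GC correction none rose and 9 fell. Atp2a2, which encodes the SERCA pump that refills the sarcoplasmic reticulum, stood at 70791, 80306 and 71646 in sham hearts and at 30981, 29072 and 45807 after TAC. All TAC hearts lay below all sham hearts, a fall of 2.15-fold (log2 fold change -1.10 ± 0.15, adjusted p = 2.11e-05, limma). Pln, phospholamban, the brake on this pump, fell from 53272, 52114 and 57178 to 25352, 26343 and 29299.5 (-1.01 ± 0.13, adjusted p = 8.19e-06), and after GC correction its log2 fold change was -0.39 (adjusted p = 0.0269). The release channel Ryr2 went from 12792, 14311 and 11015 to 5017, 8409 and 10676 (-0.72 ± 0.22, adjusted p = 0.0159), and this call did not hold without Ctrl_Sham_4011 (adjusted p = 0.0559). Without Ctrl_TAC_3586 the Ryr2 log2 fold change was -0.42 (adjusted p = 0.0417). Its partners Trdn, triadin (2764, 2689.8 and 2886 against 1167, 1259 and 1392), and Hrc, the histidine-rich calcium-binding protein (3877, 4122 and 3733 against 2229, 1927 and 2549), fell clearly.

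Potassium channels that set the resting and repolarising currents also fell: 9 of 20 tested were lower and 2 higher, and after GC correction 10 were lower and none higher. Kcnj3 and Kcnj5 encode the subunits of the acetylcholine-gated channel GIRK. Kcnj3 stood at 991, 930.2 and 988 against 175, 235 and 267 (log2 fold change -2.12 ± 0.22, adjusted p = 5.65e-06, limma) and Kcnj5 at 439.9, 417 and 484 against 109.9, 132 and 138 (-1.82 ± 0.17, adjusted p = 7.73e-07). Chrm2, the muscarinic receptor that opens this channel, fell alongside, from 1317, 1277 and 1545 to 399.9, 609 and 517 (-1.45 ± 0.15, adjusted p = 1.24e-06). Receptor and both channel subunits were thus lower in every TAC heart than in any sham heart. Kcnj2, of the inward rectifier IK1, went from 544, 474 and 594 to 214, 165 and 170.1, and Kcnd2, of the transient outward current, from 214, 237 and 265 to 78.5, 113 and 116. Its accessory subunit Kcnip2 overlapped between groups, at 741, 784 and 942 against 641, 488 and 928 (adjusted p = 0.237), and passed after GC correction (log2 fold change -0.71, adjusted p = 0.0288).

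Among 25 cardiac G protein coupled receptors tested, 3 rose and 6 fell (1 and 9 after GC correction). Gpr22, an orphan receptor of cardiomyocytes, dropped from 633, 571 and 596 to 77.6, 77.0 and 46.9, a 9.04-fold fall (log2 fold change -3.18 ± 0.21, adjusted p = 1.46e-07, limma). Aqp4, a water channel, went from 50.6, 93.6 and 46.6 to 4.62, 3.24 and 2.60 (-3.80 ± 0.46, adjusted p = 5.25e-06), and Cngb3, a cyclic nucleotide-gated channel subunit, from 67.5, 33.6 and 67.8 to 0.924, 6.48 and 4.34 (-3.68 ± 0.43, adjusted p = 5.4e-06). Both stood near the low end of what the depth can measure after TAC. Their lists went both ways: of 15 sodium and pacemaker channel genes 4 rose and 6 fell (1 and 6 after GC correction), and of 5 aquaporins 1 rose and 1 fell. Of 15 intercalated disc genes 2 rose and 7 fell (none and 4 after GC correction). The desmosomal cadherin Dsg2 fell from 926, 982 and 1046 to 318, 329.9 and 368 (-1.54 ± 0.12, adjusted p = 8.54e-08). Its partner Dsc2 went from 405, 384 and 532 to 130.2, 248 and 188 (-1.25 ± 0.18).

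Of 22 genes of the renin-angiotensin and endothelin systems tested, 5 rose and 9 fell, and after GC correction 1 rose and 5 fell. Agtr1a, the angiotensin II receptor, went from 323, 355 and 401 to 151, 129.7 and 150.1, and Nr3c2, the mineralocorticoid receptor, from 208, 168 and 244 to 64.6, 77.8 and 48.6 (log2 fold change -1.69 ± 0.20, adjusted p = 4.75e-06, limma). Ace, which makes angiotensin II, rose from 361, 449 and 299 to 997, 1133 and 1057 (1.54 ± 0.15, adjusted p = 5.47e-07).

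Of 24 VEGF and angiopoietin genes tested, 7 rose and 3 fell (7 and 5 after GC correction). Angpt1, the angiopoietin that keeps vessels quiescent, fell from 449, 434 and 329.7 to 54.5, 64.8 and 29.5 (log2 fold change -3.06 ± 0.33, adjusted p = 3.21e-05, limma), while Vegfa rose from 1383, 1451 and 1316 to 2068, 2911 and 2204 (0.78 ± 0.14). Mylk4, a myosin light chain kinase, fell from 3138, 2889 and 2395 to 513, 516 and 602 (-2.36 ± 0.22, adjusted p = 4.51e-06). Hlf, a clock-controlled transcription factor, fell from 390.2, 395 and 576 to 174, 59.2 and 92.0 and Nr1d2, a repressor of the clock, from 1073, 993 and 1298 to 480.2, 329 and 425. Of 19 circadian clock genes tested, 4 rose and 5 fell (1 and 8 after GC correction). The hour at which the hearts were taken was not given in the sources used here. Among genes without overlap and with a mean of at least 50, the 15 largest falls also held Cenpf, Ccl11, Klhl33, Pfkfb1, Iigp1, Lrrc15, Bhlhb9, Phkg1, Zfp970 and Ces1d, with log2 fold changes from -3.33 (Cenpf) to -2.05 (Ces1d). The 15 largest rises also held Adamtsl2 (4.11), Nmrk2 (3.01) and Dio2 (2.95). Nmrk2, a kinase that makes NAD from nicotinamide riboside, was uneven and highest in Ctrl_TAC_3800, at 1340.5 against 134 and 139 in the other TAC hearts. Without that animal its log2 fold change was 1.91 (adjusted p = 0.000669), and the call was lost without Ctrl_Sham_4010 or Ctrl_Sham_4011 (adjusted p = 0.0622 and 0.0584).

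Genes of fatty acid breakdown were lower. Of 31 genes of fatty acid uptake and oxidation tested, 19 fell and 2 rose (median -0.55, and 20 fell and none rose after GC correction). Lpl, the lipase that frees fatty acids from lipoproteins, fell from 44999, 45015 and 49941 to 22004, 23314 and 24551 (-1.0 ± 0.13, adjusted p = 7.1e-06, limma). Within beta oxidation Decr1, the dienoyl-CoA reductase, fell from 2529.9, 2633 and 2867 to 1182, 1011 and 1402, and Hadha, the trifunctional protein, from 9148, 9903 and 9287 to 5814, 5673 and 7141. Etfa and Etfdh, which pass electrons from the oxidation to the respiratory chain, fell from 2643, 2425 and 2569 to 1262, 1026 and 1352 and from 4671, 4508 and 4473 to 2037, 1918 and 2591. TAC and sham values were apart in each of these genes. The fatty acid transporter Cd36 was lower as deposited (14013, 13541 and 14239 against 8175, 8656 and 12062, log2 fold change -0.55, adjusted p = 0.00564), which GC correction ended (0.064, adjusted p = 0.781).

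Breakdown of ketone bodies and branched-chain amino acids followed the same direction, with 17 of 25 tested lower and 1 higher (median -0.54, and 11 lower and none higher after GC correction). Dbt and Bckdhb encode parts of the branched-chain keto acid dehydrogenase. Dbt fell from 646, 631 and 740.0 to 237, 268 and 269 (-1.38 ± 0.14, adjusted p = 9.24e-07, limma) and Bckdhb from 388, 343 and 351 to 183, 163 and 165 (-1.08 ± 0.13, adjusted p = 3.72e-06). Aldh6a1, of valine breakdown, fell from 2651, 2545 and 2824 to 935, 1023 and 1341. Oxct1, which starts the use of ketone bodies, went from 8987, 9122 and 8953 to 5962, 6242 and 6966 (-0.50 ± 0.12, adjusted p = 0.00243).

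In the TCA cycle 12 of 20 tested fell and none rose, before and after GC correction (median -0.46). Sucla2, a subunit of succinyl-CoA ligase, went from 4282, 3819.5 and 3891 to 1823, 1901 and 2036 (-1.06 ± 0.11, adjusted p = 1.59e-06, limma), and Sdha, of succinate dehydrogenase, from 7001, 6981 and 7932 to 3662, 3237 and 4349.8 (-0.97 ± 0.13). Pdha1, of the pyruvate dehydrogenase that feeds the cycle, fell from 7578, 7042 and 7773 to 3407, 3538 and 4493 (-0.98 ± 0.13, adjusted p = 1.7e-05), but its list, of glucose uptake, glycolysis and glycogen, had 8 of 34 higher and 8 lower (median 0.03, with 2 higher and 11 lower after GC correction). Metabolic regulators went both ways, with 6 of 25 higher and 7 lower (4 and 7 after GC correction). Among those that did not pass, Ppargc1a, the coactivator PGC-1alpha, stood at 1164, 1269 and 1101 against 669.6, 665 and 1999, and Ppara, the fatty acid-sensing receptor, at 178, 213 and 182 against 78.5, 176 and 205. Pdk4, a kinase that shuts pyruvate dehydrogenase, stood at 1041, 1223 and 1237 against 2863, 1344 and 8462 (adjusted p = 0.196), and Cpt2, of the carnitine shuttle, at 1154, 1311 and 1284 against 1072, 827 and 1187 (adjusted p = 0.0837, and 0.00659 after GC correction). Heart Ctrl_TAC_4231 was the highest TAC heart for all 4 of these genes. Ckmt2, the mitochondrial creatine kinase, overlapped between groups, at 10443, 11134 and 8714 against 9110.0, 8882 and 9429 (adjusted p = 0.39).

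The respiratory chain did not move as one. Of 36 nuclear genes of complex I tested, 9 rose and 4 fell, and of 40 of complexes II to V 11 rose and 12 fell. After GC correction the counts were 6 and 7, and 7 and 10. Ndufs1, of the core of complex I, fell from 4069, 3947 and 4262 to 2169, 2181 and 2633 (-0.82 ± 0.12, adjusted p = 2.77e-05, limma), while Atp5g1, of the rotor ring of ATP synthase, rose from 262, 277 and 295 to 1251, 1516 and 913 (2.11 ± 0.21, adjusted p = 4.76e-06). The complex I median over sham was 0.55 on the log2 scale in Ctrl_TAC_3586, 0.02 in Ctrl_TAC_3800 and -0.09 in Ctrl_TAC_4231, so that the hearts differed among themselves here. Without Ctrl_TAC_3586 the counts were 6 higher and 9 lower. Of 12 mitochondrially encoded protein genes 8 fell and none rose (median -0.68), of which 1 passed after GC correction.

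Cell type markers were read beside these results, since fewer cells of a type and less RNA per cell cannot be told apart in bulk tissue. Of 11 activated fibroblast markers tested 9 rose and none fell (median 3.49), with the same counts after GC correction. Of 10 general fibroblast markers 6 rose and none fell (median 0.82), and after GC correction 4 rose and none fell (median 0.55). Postn, Cilp, Comp, Fmod, Ltbp2, Thbs4, Sfrp2 and Col1a1 are among these markers and were given above. The marker counts are therefore not separate from the matrix and WNT results. The summed level of the general fibroblast list was 8403 to 9324 in sham hearts and 14926 to 17741 after TAC, and that of the activated list 913 to 1666 and 5250 to 7942. Pdgfra, a receptor that marks resting fibroblasts and was named after its values were seen, overlapped between groups, at 382, 366 and 252 against 257, 281 and 284 (adjusted p = 0.172). Of the smooth muscle and pericyte markers 3 of 9 rose and 3 fell (2 and 3 after GC correction). Of the endothelial markers 7 of 12 rose and none fell (median 0.46), with 5 higher after GC correction.

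Cardiomyocyte markers were mixed, with 4 of 12 higher and 3 lower (median -0.14), and 1 higher and 5 lower after GC correction. Macrophage markers were mixed as well, with 2 of 13 higher and 3 lower (none and 2 after GC correction). Mrc1, the mannose receptor of resident macrophages, fell from 402, 335 and 241 to 128, 160.5 and 148 (log2 fold change -1.13, limma adjusted p = 3.2e-05), whereas C1qc, a complement chain, rose from 162, 159 and 108 to 308, 430.3 and 187, a call that GC correction ended (adjusted p = 0.285). Adipocyte markers were at 0 to 6.36 in 5 hearts and reached 70.5 (Cfd) in Ctrl_TAC_3800. Of 5 erythroid markers tested 2 rose and none fell (median 1.01), with a summed level of 562 to 790.4 in sham hearts and 1305 to 2515 after TAC, and all 3 Schwann cell markers tested fell (median -1.45, summed 194 to 224 against 106 to 136), with the same counts after GC correction. Lymphocyte markers stayed at or below 12.2, and none of the 3 neutrophil markers tested passed. The part of these cells in the matrix and metabolic results was not tested.

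**Figure D4:**
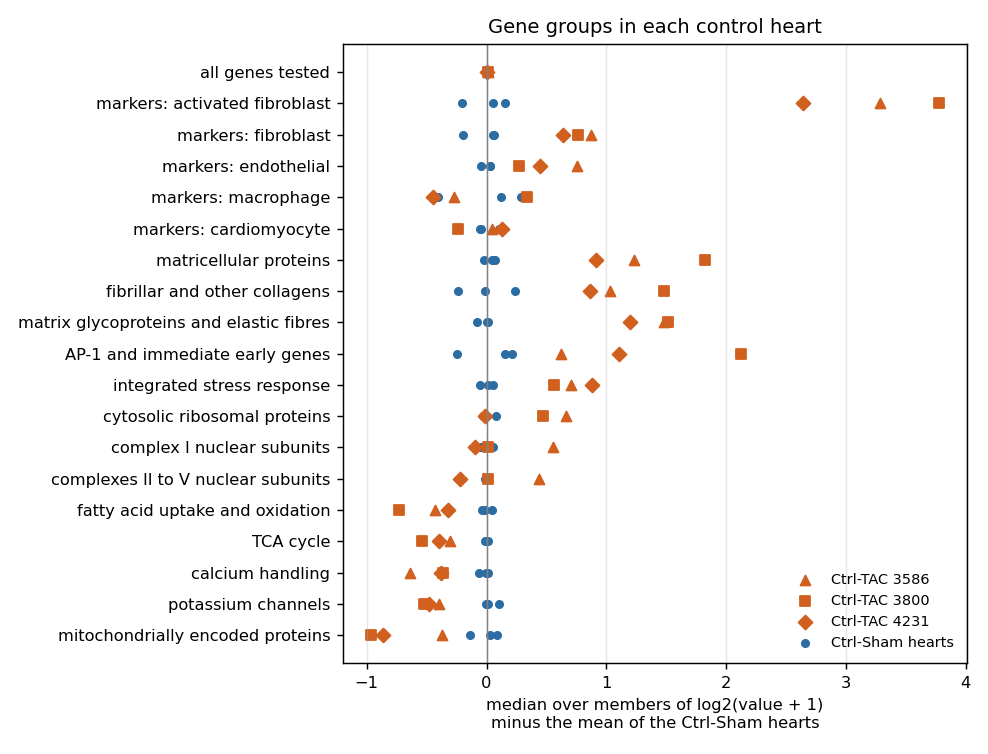
Median over the members of each gene group of log2(value + 1) minus the mean of the Ctrl-Sham hearts (x axis), drawn for every control heart. Triangles, squares and diamonds mark Ctrl_TAC_3586, Ctrl_TAC_3800 and Ctrl_TAC_4231 and small circles the sham animals. Matrix groups and fibroblast markers lie to the right of 0 in all 3 TAC hearts and fatty acid, TCA cycle, calcium and potassium channel groups to the left, while complex I is at 0.55 in Ctrl_TAC_3586 and near 0 in the other two.

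Within the TAC group the hearts kept the same direction in the main groups but not the same size. Collagens were 1.48 above sham on the log2 scale in Ctrl_TAC_3800, 1.03 in Ctrl_TAC_3586 and 0.86 in Ctrl_TAC_4231, and matricellular proteins 1.82, 1.23 and 0.92. Fatty acid genes were lowest in Ctrl_TAC_3800 as well (-0.73, against -0.43 and -0.33), while calcium handling was lowest in Ctrl_TAC_3586 (-0.64, against -0.36 and -0.38). Over read counts of the genes tested, the chi-square per degree of freedom was 14.0 to 24.8 for pairs of TAC libraries and 3.88 to 5.48 for pairs of sham libraries. These counts were scaled by their totals, mitochondrial reads included. The mitochondrial share was 43.0% in Ctrl_TAC_3586, 33.9% in Ctrl_TAC_3800 and 36.0% in Ctrl_TAC_4231, and its part was not tested. The sham hearts stayed within 0.24 of their mean in all gene groups of this paragraph.

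The same operation in CIP-OE mice gives the closest comparison. TAC against sham passed for 169 genes (1.26%) there, and the difference between the responses of the 2 genotypes passed for 1555 genes (11.6%). Both counts are as deposited and are not given after GC correction. The GC feature of the Ctrl-TAC libraries enters the difference between the genotypes, and its part in the 1555 genes was not tested. Among 29 key genes tested, the response differed for 5, and for 2 when any of Ctrl_Sham_4010, Ctrl_Sham_4033, Ctrl_TAC_3586 or Ctrl_TAC_3800 was left out. The log2 fold change of Nppa was 5.02 in control hearts and 2.95 in CIP-OE hearts (849 ± 361 to 6396 ± 2107, SD, n = 3 and 3), a difference of 2.07 ± 0.49 (SE, adjusted p = 0.0256, limma). That of Ltbp2 was 4.95 against 2.29 (difference 2.66 ± 0.72, adjusted p = 0.0412) and that of Col1a1 1.90 against 0.55 (1.35 ± 0.39, adjusted p = 0.0463). For Pln it was -1.01 against -0.35 (-0.66 ± 0.18, adjusted p = 0.0248) and for Gpr22 -3.18 against -0.85 (-2.33 ± 0.30, adjusted p = 0.00109).

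Gpr22 stood at 467 ± 139 in CIP-OE-Sham and 254 ± 44.6 in CIP-OE-TAC, above the 67.1 ± 17.6 of Ctrl-TAC. It was the only one of the 5 whose difference passed after GC correction (-1.64, adjusted p = 0.0347). For Nppa, Ltbp2, Col1a1 and Pln the corrected differences were 1.68, 2.03, 0.69 and -0.07 (adjusted p = 0.146, 0.278, 0.547 and 0.913). Acta1 (difference 2.26, adjusted p = 0.0568), Gdf15 (3.42, adjusted p = 0.0617), Fmod (3.31, adjusted p = 0.0596) and Fn1 (0.79, adjusted p = 0.0543) missed the threshold, and after GC correction their adjusted p was 0.341, 0.337, 0.238 and 0.398. The difference for Ankrd1 was 0.02 ± 0.42 and for Nppb 0.22 ± 0.58, neither past it.

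**Figure D5:**
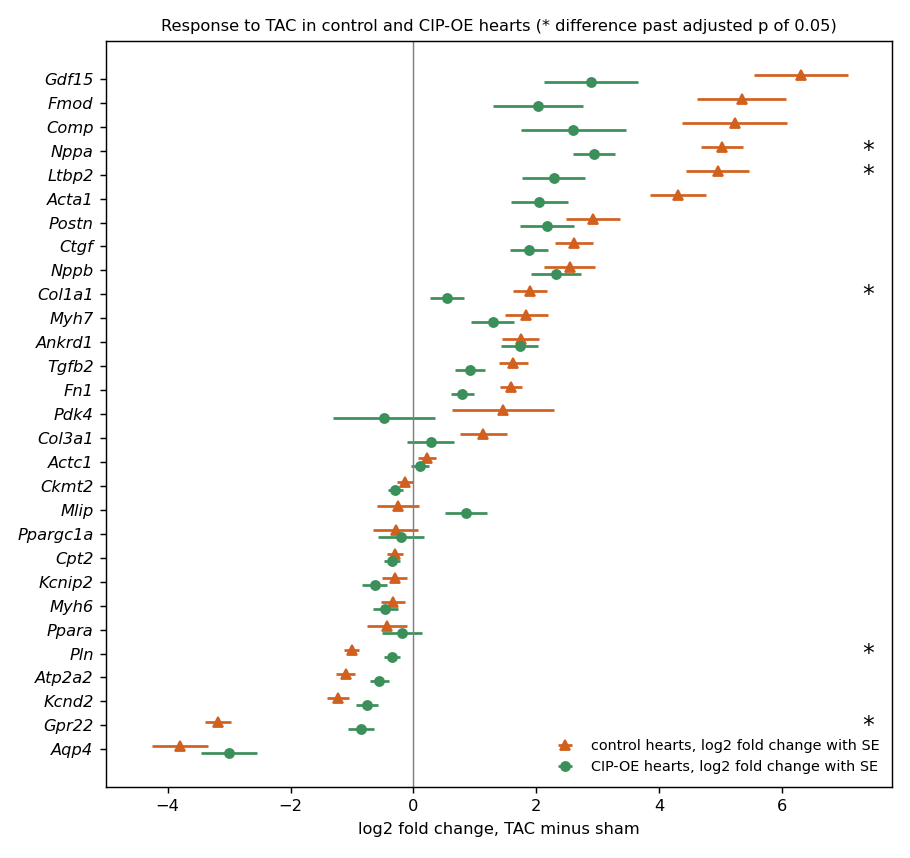
Log2 fold change of TAC against sham (x axis) for 29 key genes in control hearts (triangles) and CIP-OE hearts (circles), with the limma SE as bars. Stars mark the 5 genes whose responses differ at an adjusted p below 0.05: Nppa, Ltbp2, Col1a1, Pln and Gpr22.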

How the data were processed

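The deposited table gives gene-level signal in 12 mouse heart libraries: per the labels and the study's methods, the authors counted BGIseq reads of total RNA and divided them by a DESeq2 factor per library. Alignment and counting are described in 2 ways: with STAR, featureCounts and mm10 in the study's methods, and with GRCm38, HISAT2 2.0.4, StringTie 2.1.4 and DESeq2 1.4.5 in the notes of the submitters. The annotation and the use of strand were not given in the sources used here. From the table's 54515 rows, 633 exact duplicates were removed, and 28 rows named by a date and 75 further rows of a repeated symbol could not be told apart by gene. Whole reads were recovered for 100% of the values (tolerance 0.001), with 1 read worth 0.810 to 1.06 in the control libraries.

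Genes were tested on log2(value + 1) with limma 3.58.1 in R 4.3.3 (robust, with a trend of the spread), fitted over all 12 libraries with 1 mean per group, with Benjamini-Hochberg adjustment over 13392 genes. The difference between the responses of the genotypes was the interaction term of that fit. Alternatives were edgeR 4.0.16 (quasi-likelihood) and DESeq2 1.42.0 on the recovered reads, other scalings, pseudocounts, filters and fold thresholds, a loess correction of each library for GC content, with and without length, and leaving out each control library. The scripts were tested on simulated data with 200 of 13392 genes changed. There limma recovered 70% of the 2-fold changes, and 6.08% of its calls were false. The simulated data held no shift with GC content, so they do not test the calls under the GC feature. Lengths, GC content and gene positions came from GENCODE M21, which held 52966 of the 53882 entries.

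Each animal gave 1 library, so p-values rest on the spread between animals. That spread was estimated once per gene over all 12 libraries. The SE and p-values of limma are therefore not those of the 6 control hearts alone. Genes named were drawn from 29 key genes and the 15 largest rises and falls. The latter were taken without overlap of the groups and with a mean of at least 50. For each list, the 3 members of highest mean and the 4 of smallest p were eligible. Not all of these list members are named, and the choice among them followed no set rule. Pdgfra and Myl2 were added after their values were seen. A gene that this rule names is not reported here. The members and lists were chosen with earlier results of these data known.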

Additional observations from a re-analysis of the deposited data

Results flagged for a closer look

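In 5 of the 29 key genes the response to TAC differed between control and CIP-OE hearts in the interaction test (limma, adjusted p below 0.05). The control response minus the CIP-OE response, on the log2 scale, was 2.07 for Nppa, 2.66 for Ltbp2, 1.35 for Col1a1, -0.66 for Pln and -2.33 for Gpr22. In each, the log2 fold change had the same sign in both genotypes and lay further from 0 in the control hearts. Within CIP-OE hearts, TAC against sham passed for Nppa only (limma adjusted p = 0.00596). It did not pass for Ltbp2, Col1a1, Pln and Gpr22 (adjusted p = 0.0653, 0.452, 0.214 and 0.0651), so the sign there is uncertain. After GC correction only the difference for Gpr22 passed (adjusted p = 0.0347). Groups of 3 are too small for the test of single outlying samples, so none was run.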

How the results depend on the processing

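Of 2254 genes higher and 1837 lower in Ctrl-TAC (adjusted p below 0.05, fold over 1.5), the counts moved by over 1.5 times under GC correction (1066 higher, 862 lower), under GC and length correction (1047 and 884) and at a fold over 2 (1144 and 605). With edgeR they were 2328 and 1844 and with DESeq2 2252 and 1771. Leaving out each control library gave 1905 to 2194 higher and 1559 to 1919 lower. The count of 5 key genes whose response differs between the genotypes was 1 under either GC correction, 2 without a trend of the spread, 3 with edgeR, quantile normalization or the filter at a value above 0, 9 with the filter at 50, and 2 to 6 when each control library was left out. The cause was not tested. The log2 fold change of Cd36 changed sign under GC correction (0.064) and GC and length correction (0.0857). No paired analysis was possible because the labels number each animal and the groups share no number.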

Other observations

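Some widely expressed genes, among them Atp5a1, Uqcrc1, Ndufs3 and Jund, are listed at 0 in all 6 control libraries, so they entered no comparison.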
